A study of Mus musculus with 12 samples.

Results

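The 10 genes studied, all known to respond to oestrogen (Greb1, Ltf, Areg, Igf1, Cited1, Ctsd, Wnt4, Lcn2, Igfbp4 and Xbp1), were followed in the prostate of male mice whose foremothers had received chlordecone in pregnancy. They were taken by gene name from the deposited count tables, and all 10 were found among the 19091 genes of the F1 table and among the 26023 genes of the F3 table. Chlordecone, also called kepone, is an organochlorine insecticide that binds the oestrogen receptor. Pregnant F0 females of the exposed line were given 100 µg/kg/day from E6.5 to E15.5 (embryonic days), so F1 males were exposed in the womb, while F3 males are great-grandsons of the dosed females. The groups analysed were F1 chlordecone (n = 3), F1 control (n = 2, of 3 in the labels; F1 control 3 was not analysed here), F3 chlordecone (n = 3) and F3 control (n = 3). The strain, the age of the males and the treatment of control females are not stated in these sources, nor is it said whether samples came from separate animals or litters, so p-values measure only the spread between these samples, which may be technical.

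Oestrogen acts through 2 nuclear receptors, encoded by Esr1 and Esr2, which bind DNA directly at oestrogen response elements or reach it through other factors such as AP-1. In the rodent prostate Esr1 is known mainly from the stroma and Esr2 mainly from the epithelium, and exposure to oestrogens around birth is known to leave lasting changes in the gland. Most of what is known of these 10 genes as oestrogen targets comes from other tissues. Ltf, Lcn2, Areg and Igf1 are classical targets in the mouse uterus, Wnt4 and Cited1 are known from the mouse mammary gland, and Greb1, Ctsd, Xbp1 and Igfbp4 from human breast cancer cells.

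Total counts were 17858215 to 28061760 in F1 chlordecone and 17228539 to 18740109 in F1 control libraries, and 86552953 to 112491139 in F3 chlordecone and 71672418 to 114762135 in F3 control libraries. Within groups, pairs of libraries differed by more than counting noise, with a chi-square per gene of 16.6 (the F1 controls) to 599. The prostate epithelium markers, a list that includes Pbsn (probasin) and Msmb, summed to 40840 to 89930 CPM (read counts scaled to library size with the trimmed mean of M values, TMM) in F1 chlordecone and 80600 to 95740 CPM in F1 control libraries, and to 89380 to 98800 CPM in F3 chlordecone and 94400 to 107300 CPM in F3 control libraries. Seminal vesicle markers summed to 187000, 430200 and 528800 CPM in F1 chlordecone 1, 2 and 3, against 118400 and 121100 CPM in F1 control 1 and 2, and to 9.91 to 16.4 CPM in F3 chlordecone and 10.5 to 70.2 CPM in F3 control libraries. Vas deferens and epididymis markers summed to 44290, 104 and 13930 CPM in F1 chlordecone 1, 2 and 3, against 26 and 24.8 CPM in F1 control 1 and 2, and stayed at 0.349 CPM or less in each F3 library. The last sum rests on Akr1b7 and Crisp1, as the other members in the F1 table averaged 0.706 CPM or less in either F1 group. Of the 7 seminal vesicle markers Svs2, Svs5 and Pate4 had an unadjusted p under 0.05 in F1. The others, Svs1, Svs3a, Svs4 and Svs6, overlapped between the groups. In bulk tissue, fewer cells of a type and less RNA per cell cannot be told apart.

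The F1 comparison asks whether oestrogen-responsive genes differed in the prostate of males exposed in the womb. Wnt4, Lcn2, Ltf and Cited1 were higher in all 3 F1 chlordecone libraries than in both F1 controls, and Greb1 was lower in all 3. Wnt4 averaged 12.4 ± 1.57 CPM in chlordecone and 4.31 ± 0.654 CPM in control libraries (SD, n = 3 and 2), and Greb1 averaged 40.8 ± 12.3 and 93.7 ± 11.5 CPM in the same groups. Lcn2, Ltf and Cited1 had an SD of similar size to their mean in chlordecone libraries. None of the 10 genes passed edgeR's quasi-likelihood test at a Benjamini-Hochberg adjusted p under 0.05 over all 17804 genes tested, where 0.0281% of genes passed, and 5 of the 10 had an unadjusted p under 0.05, as did 11.5% of all genes. DESeq2 on the same counts called those 5 genes, 4 higher and 1 lower, where it called 3.99% of all genes (3.05% higher and 0.944% lower), and so did the authors' deposited table, in which 3.37% of genes had an adjusted p under 0.05.

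Wnt4 encodes a secreted Wnt ligand that drives side branching in the mammary gland. It had 10.9, 12.4 and 14 CPM in F1 chlordecone 1, 2 and 3, against 4.77 and 3.84 CPM in F1 control 1 and 2. All 3 chlordecone libraries lay well above both controls and close to each other. The log2 fold change was 1.53 (SE 0.36, adjusted p = 0.208 with edgeR; DESeq2 adjusted p = 0.00998). It lay between 1.39 and 1.70 when single libraries were left out. In chlordecone 2 alone against both controls, an alternative chosen after seeing the data, it was 1.52 (adjusted p = 0.0726 with edgeR). That library had the lowest vas deferens and epididymis markers of the chlordecone libraries. Its prostate epithelium markers were the lowest of the F1 libraries, at 40840 CPM. They were at 86130 and 89930 CPM in F1 chlordecone 1 and 3, and at 95740 and 80600 CPM in F1 control 1 and 2. Chlordecone 2 also had high seminal vesicle markers and the highest basal epithelium markers of the F1 libraries. Its adipose markers were the highest of these libraries too (292 CPM, against 21.8 and 28.7 CPM in the controls). Areg, which encodes the epidermal growth factor receptor ligand amphiregulin, was barely detected, at 13, 11 and 30 counts in F1 chlordecone and 17 and 3 counts in F1 control libraries, and its groups overlapped (log2 fold change 0.69, SE 1.36, adjusted p = 0.895 with edgeR).

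Igf1, the ligand of the insulin-like growth factor receptor, had 36.3, 44.8 and 37.5 CPM in F1 chlordecone 1, 2 and 3, against 49.3 and 45.9 CPM in F1 control 1 and 2. The chlordecone libraries all lay below the controls, with chlordecone 2 only just below, and the difference missed the threshold (log2 fold change -0.27, SE 0.24, adjusted p = 0.733 with edgeR). Igfbp4, whose product binds insulin-like growth factors and restrains them, had 19.0, 27.8 and 17.6 CPM in F1 chlordecone 1, 2 and 3, against 14.2 and 16.4 CPM in F1 control 1 and 2. It was higher in each chlordecone library, yet missed the threshold as well (log2 fold change 0.49, SE 0.31, adjusted p = 0.602 with edgeR). Of the 10 members, 5 lay above and 2 below the controls without overlap in F1, where 31.3% of all tested genes did not overlap (16.2% above and 15.1% below).

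Lcn2 encodes a lipocalin that binds bacterial siderophores. It had 23.6, 4.25 and 36.9 CPM in F1 chlordecone 1, 2 and 3, against 2.36 and 0.188 CPM in F1 control 1 and 2. Ltf, which encodes the iron-binding secretory protein lactoferrin, had 5.31, 0.763 and 10.5 CPM in F1 chlordecone 1, 2 and 3, against 0.262 and 0 CPM in F1 control 1 and 2, the control values being 5 and 0 counts. Cited1, which encodes a coactivator that binds CBP and p300, had 137, 1.36 and 22.5 CPM in F1 chlordecone 1, 2 and 3, against 0.576 and 0.0469 CPM in F1 control 1 and 2. Chlordecone 1 and 3 were far above the rest for all 3 genes, chlordecone 2 came next, and control 2 was lowest.

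The log2 fold changes were 4.10 for Lcn2 (SE 1.16, adjusted p = 0.250), 5.37 for Ltf (SE 1.53, adjusted p = 0.251) and 7.44 for Cited1 (SE 2.01, adjusted p = 0.243), all with edgeR. In chlordecone 2 alone against both controls they were 1.74, 2.5 and 2.11, with edgeR adjusted p of 0.509, 0.810 and 0.776 in the same order. The left-out chlordecone 1 and 3 are the libraries with the highest vas deferens and epididymis markers. Of that list of 9 genes, 6 were in the F1 table, 3 passed the filter on low counts and 2, Akr1b7 and Crisp1, had an unadjusted p under 0.05. Between 1 and 2 of the 6 were at 0 counts in each chlordecone library, and 1 and 4 in the 2 controls. Urothelium markers were also highest in chlordecone 1 and 3, but lowest in chlordecone 2, at 79.5, 15.9 and 78.0 CPM in F1 chlordecone 1, 2 and 3, against 29.6 and 21.1 CPM in F1 control 1 and 2. All 7 of them were tested, with 5 at an unadjusted p under 0.05 and 0 at 0 counts. Smooth muscle markers were also highest in chlordecone 1 and 3, at 11750, 4636 and 7398 CPM in F1 chlordecone 1, 2 and 3, against 4036 and 3964 CPM in F1 control 1 and 2. The part of these tissues in the result was not tested.

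Lcn2 and Ltf are also granule genes of neutrophils. The neutrophil markers summed to 1.78, 4.36 and 2.49 CPM in F1 chlordecone 1, 2 and 3, against 3.93 and 4.12 CPM in F1 control 1 and 2. The sum in controls was mostly Mmp8 (0.293 CPM in chlordecone and 3.11 CPM in control libraries on average). By contrast, S100a8 (0.948 and 0.445 CPM), Csf3r (0.574 and 0 CPM), Cxcr2 (0.527 and 0.0234 CPM) and Ngp (0.422 and 0 CPM) averaged higher in chlordecone libraries. S100a9 (0.112 and 0.445 CPM) averaged lower there, as Mmp8 did. Of the 9 neutrophil markers, 6 were in the F1 table. Of these, 1 or 2 were at 0 counts in each chlordecone library, and 4 and 3 in the 2 controls. The wider leukocyte markers summed to 15.6, 14.7 and 42.7 CPM in F1 chlordecone 1, 2 and 3, against 13.9 and 15.7 CPM in F1 control 1 and 2, and chlordecone 3 alone stood out. The part of neutrophils and other leukocytes in the Lcn2 and Ltf levels was not tested.

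**Figure D1:**
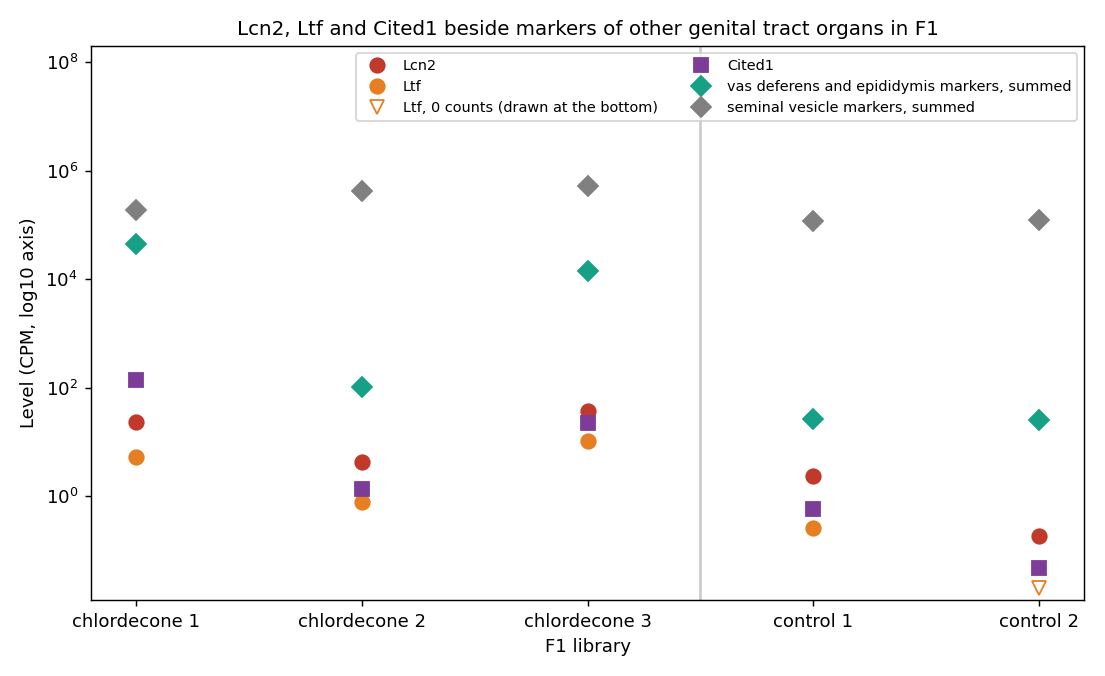
Level in CPM (log10 axis) of Lcn2, Ltf and Cited1, and the summed CPM of the vas deferens and epididymis and of the seminal vesicle marker lists, in each F1 library, chlordecone left of control; the open triangle is a library with 0 counts. The 3 genes and the vas deferens and epididymis markers were highest in chlordecone 1 and 3, at 13930 CPM or more for the marker sum, while the seminal vesicle sum was highest in chlordecone 2 and 3.

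Greb1 encodes a chromatin-bound cofactor of the oestrogen receptor. It had 30.7, 54.5 and 37.2 CPM in F1 chlordecone 1, 2 and 3, against 102 and 85.6 CPM in F1 control 1 and 2. The groups were well apart, chlordecone 2 being nearest to the controls. The log2 fold change was -1.20 (SE 0.30, adjusted p = 0.224 with edgeR; DESeq2 adjusted p = 0.0171), and -0.78 in chlordecone 2 alone. Over all alternatives run, the adjusted p of Greb1 ranged from 0.00494 to 0.874 and the sign never changed. Greb1 lies over the numbered gene models Gm44305, on its own strand, and Gm48140, on the other strand. Overlap of their exons was not checked, so part of the Greb1 reads may be uncertain.

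Xbp1, which encodes a transcription factor of the unfolded protein response, had 110, 69.5 and 141 CPM in F1 chlordecone 1, 2 and 3, against 90.7 and 66.5 CPM in F1 control 1 and 2. Ctsd, which encodes the lysosomal aspartic protease cathepsin D, had 709, 389 and 705 CPM in F1 chlordecone 1, 2 and 3, against 584 and 608 CPM in F1 control 1 and 2. Both were highest in chlordecone 1 and 3 and lower in chlordecone 2, which lay between the controls for Xbp1 and below them for Ctsd. With edgeR, Xbp1 had a log2 fold change of 0.44 (SE 0.35, adjusted p = 0.692) and Ctsd one of 0.01 (SE 0.35, adjusted p = 0.994). Counts per gene do not separate the spliced from the unspliced form of Xbp1. Ctsd shares its locus and strand with Gm49369. Overlap of their exons was not checked, so part of the Ctsd reads may be uncertain.

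**Figure D2:**
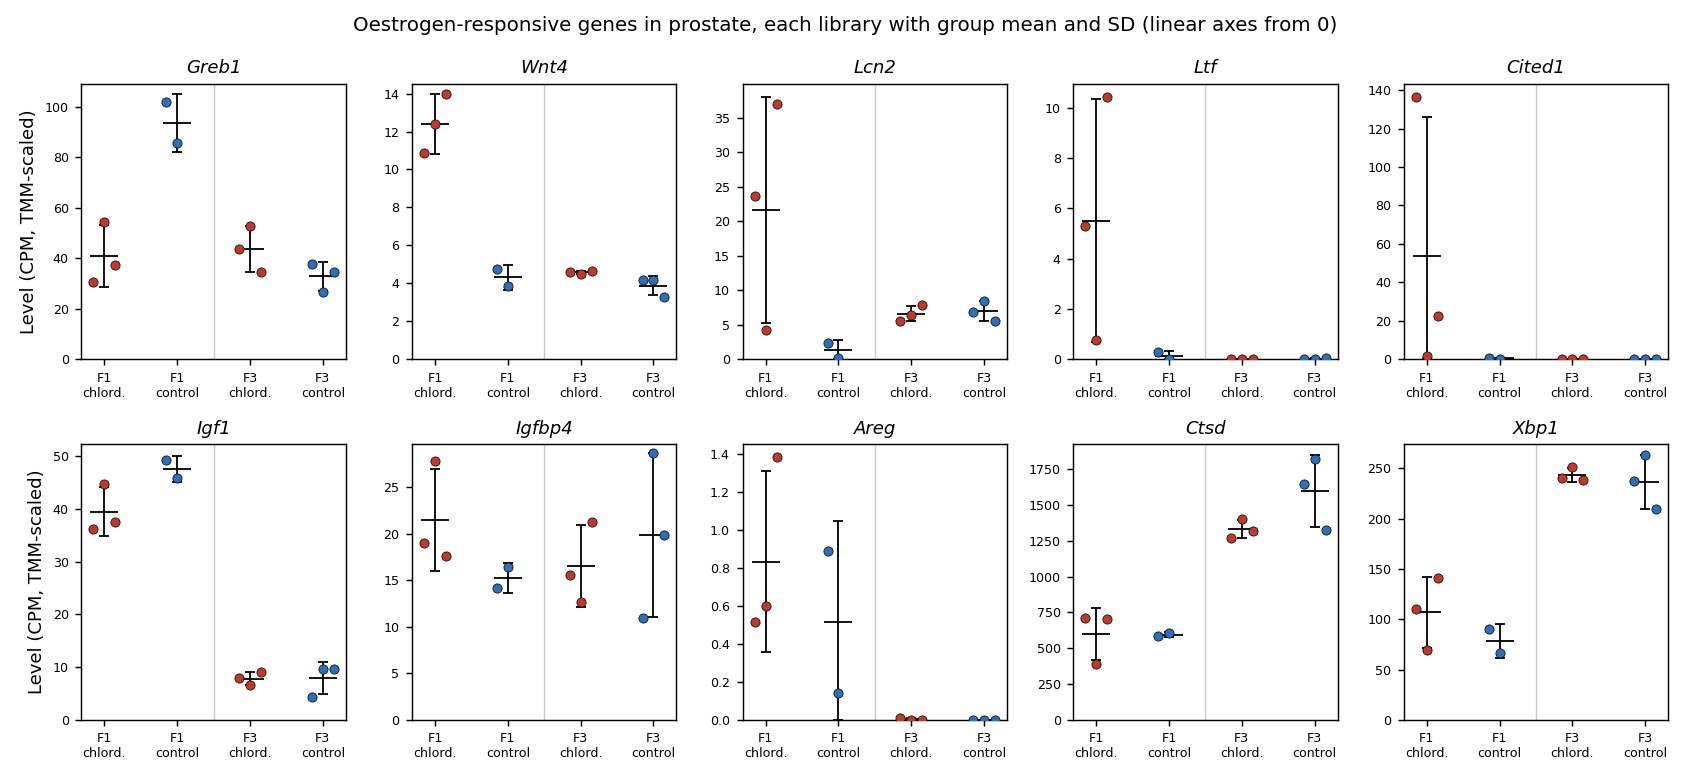
Level in CPM of the 10 oestrogen-responsive genes in each library (points), with the group mean and SD (bars, cut at 0), F1 left and F3 right of the grey line and chlordecone left of control; axes are linear. Wnt4 and Greb1 separate the F1 groups tightly, the spread of Lcn2, Ltf and Cited1 in F1 chlordecone reaches from near the controls to 137 CPM for Cited1, and the F3 groups lie close together in all 10 panels.

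The genes are placed as follows in GRCm38. Greb1 is on chromosome 12 (16670615 to 16800886, minus strand), Wnt4 on chromosome 4 (137277489 to 137299726, plus), Lcn2 on chromosome 2 (32384633 to 32388252, minus), Ltf on chromosome 9 (111019271 to 111042767, plus) and Cited1 on chromosome X (102247381 to 102252181, minus). Igf1 is on chromosome 10 (87858265 to 87937042, plus, with Igf1os on the other strand), Areg on chromosome 5 (91139599 to 91148432, plus), Ctsd on chromosome 7 (142375911 to 142388038, minus), and Igfbp4 (99041244 to 99054392, plus) and Xbp1 (5520659 to 5525893, plus) are both on chromosome 11. The F1 table gives other start positions for all 10 genes with the same gene span, so coordinates here are those of the GENCODE M21 annotation.

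The sequences before the start sites of the 5 genes that separated the F1 groups most are shown because the receptor binds DNA at a known motif. The oestrogen response element was searched as a palindrome (GGTCA, any 3 bases, then TGACC) and as its single arm GGTCA, on both strands, in the 250 bases before the outermost RefSeq start of each gene (GRCm38.p6); the arm is contained in the palindrome. The part of each window that overlaps no annotated exon is printed 5′ to 3′ on the strand of the gene, with single arms in capitals.
Greb1, chr12:16800887-16801136, minus strand: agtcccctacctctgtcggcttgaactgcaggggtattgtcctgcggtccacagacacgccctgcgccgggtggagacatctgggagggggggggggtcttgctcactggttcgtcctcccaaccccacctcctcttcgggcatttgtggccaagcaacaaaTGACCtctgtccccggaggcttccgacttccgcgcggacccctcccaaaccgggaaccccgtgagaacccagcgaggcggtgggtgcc
Ltf, chr9:111019042-111019270, plus strand: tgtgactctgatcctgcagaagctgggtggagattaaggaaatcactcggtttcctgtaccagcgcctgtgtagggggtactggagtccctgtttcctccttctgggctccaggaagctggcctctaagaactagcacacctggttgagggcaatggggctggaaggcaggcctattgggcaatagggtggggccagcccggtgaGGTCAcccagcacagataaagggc
Cited1, chrX:102252182-102252431, minus strand: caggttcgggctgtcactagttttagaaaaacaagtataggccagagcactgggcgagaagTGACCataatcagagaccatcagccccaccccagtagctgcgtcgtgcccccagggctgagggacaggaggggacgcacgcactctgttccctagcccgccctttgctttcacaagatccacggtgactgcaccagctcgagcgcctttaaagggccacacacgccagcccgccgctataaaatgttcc
Wnt4, chr4:137277385-137277488, plus strand: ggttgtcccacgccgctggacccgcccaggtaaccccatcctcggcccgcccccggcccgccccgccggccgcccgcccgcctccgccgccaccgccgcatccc
Lcn2, chr2:32387798-32387850, minus strand: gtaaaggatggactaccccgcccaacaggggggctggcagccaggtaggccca

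The palindrome was found in 0 of the 10 windows, and in 0.0639% of all 32851 promoter windows of that length. The single arm was found in 5 of 10 windows, those of Greb1, Ltf, Igf1, Cited1 and Ctsd, and in 35.2% of all windows. Greb1 and Cited1, which lay on opposite sides of the controls in F1, each held it once, 88 and 189 bases before the start. The AP-1 motif TGANTCA was found in 1 of the 10 windows, that of Igf1, and in 6.75% of all windows. These matches describe letters in short windows only.

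The F3 comparison asks whether differences were present in F3. Of the 7 members that passed the filter on low counts, 0 passed edgeR's test, where 0.0596% of the 16766 genes tested passed, 0 had an unadjusted p under 0.05, as 10.6% of genes did, and DESeq2 called 0, where it called 1.61% of genes. The authors' deposited table likewise had 0 of the 10 members under an adjusted p of 0.05, against 0.646% of its genes.

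Greb1 had 43.6, 52.8 and 34.5 CPM in F3 chlordecone 1, 2 and 3, against 37.6, 26.4 and 34.4 CPM in F3 control 1, 2 and 3. The groups overlapped, chlordecone 3 lying between controls, and the log2 fold change was 0.41 (SE 0.19, adjusted p = 0.494 with edgeR). Wnt4 had 4.59, 4.49 and 4.63 CPM in F3 chlordecone 1, 2 and 3, against 4.17, 4.19 and 3.27 CPM in F3 control 1, 2 and 3. It was the 1 tested member whose F3 groups did not overlap, as in 16.6% of all genes (8.34% with chlordecone higher), and its log2 fold change was 0.24 (SE 0.19, adjusted p = 0.636 with edgeR).

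Lcn2 had 5.58, 6.40 and 7.80 CPM in F3 chlordecone 1, 2 and 3, against 6.88, 8.47 and 5.50 CPM in F3 control 1, 2 and 3, and the groups overlapped (log2 fold change -0.07, SE 0.22, adjusted p = 0.909 with edgeR). Ltf was at 1, 0 and 0 counts in F3 chlordecone and 0, 0 and 5 counts in F3 control libraries, Areg at 1, 0 and 0 counts in F3 chlordecone and 0 counts in each F3 control library. Cited1 was at 3, 4 and 5 counts in F3 chlordecone and 5, 4 and 10 counts in F3 control libraries. These 3 genes were at or near the floor of 3 counts, which is 0.0249 to 0.0424 CPM in F3, and no difference was detectable at that level.

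Igf1 had 7.85, 6.54 and 9.06 CPM in F3 chlordecone 1, 2 and 3, against 4.39, 9.72 and 9.69 CPM in F3 control 1, 2 and 3. Igfbp4 had 15.6, 12.6 and 21.3 CPM in F3 chlordecone 1, 2 and 3, against 11, 28.7 and 19.9 CPM in F3 control 1, 2 and 3. Both were lowest in control 1, and in chlordecone libraries both were lowest in 2 and highest in 3. Fibroblast markers summed to 298, 277 and 369 CPM in F3 chlordecone 1, 2 and 3, against 184, 373 and 378 CPM in F3 control 1, 2 and 3, with the same libraries lowest, and smooth muscle markers to 1597, 2480 and 2379 CPM, against 1255, 4215 and 3549 CPM. The part of stromal content in the spread of Igf1 and Igfbp4 was not tested. With edgeR, Igf1 had a log2 fold change of -0.02 (SE 0.30, adjusted p = 0.983) and Igfbp4 one of -0.27 (SE 0.33, adjusted p = 0.773).

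Xbp1 had 241, 251 and 239 CPM in F3 chlordecone 1, 2 and 3, against 238, 263 and 209 CPM in F3 control 1, 2 and 3, a log2 fold change of 0.04 (SE 0.13, adjusted p = 0.914 with edgeR). Ctsd had 1273, 1401 and 1323 CPM in F3 chlordecone 1, 2 and 3, against 1647, 1824 and 1324 CPM in F3 control 1, 2 and 3, a log2 fold change of -0.26 (SE 0.17, adjusted p = 0.568 with edgeR). Control 3 lay within the chlordecone range for Ctsd, and the groups of Xbp1 overlapped throughout.

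**Figure D3:**
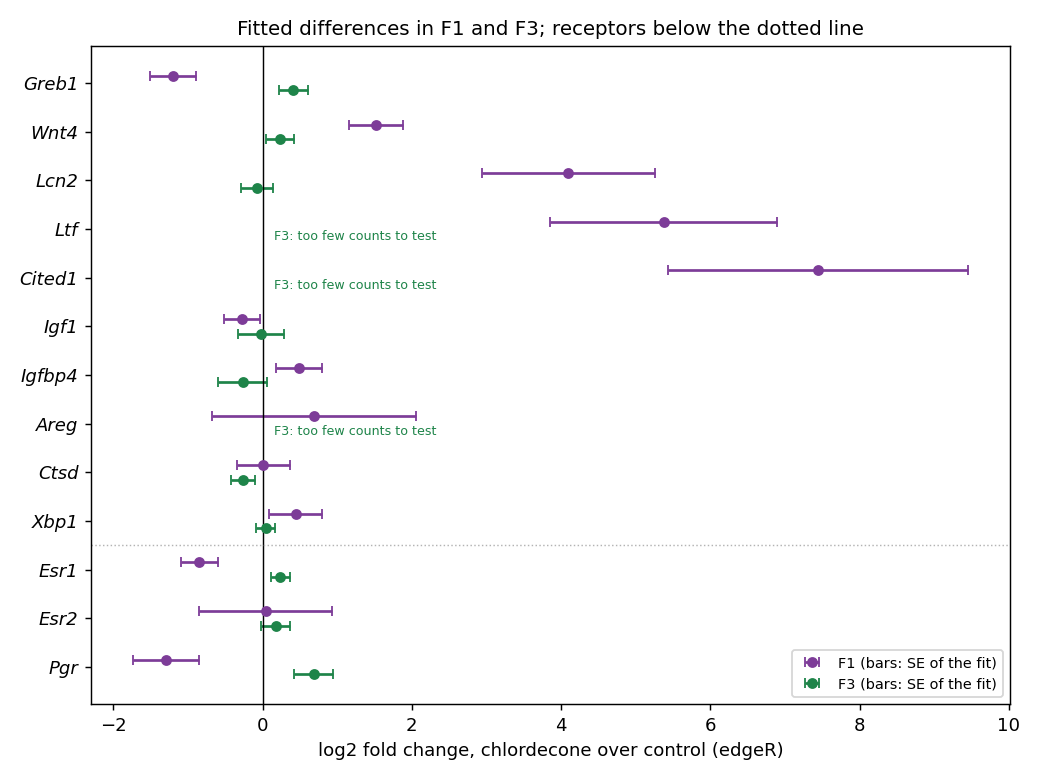
Fitted log2 fold change of chlordecone over control with its SE (edgeR) for the 10 members and, under the dotted line, for 3 steroid receptor genes, with F1 in purple above F3 in green. The F1 values span -1.20 for Greb1 to 7.44 for Cited1 among members, while the tested F3 values of members lie between -0.27 and 0.41.

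The difference between generations was tested in 1 fit of all 11 libraries. None of the 10 members passed with edgeR, where 0.718% of the 16980 genes tested passed, and 5 had an unadjusted p under 0.05, as did 16.9% of genes. DESeq2 called those 5, namely Greb1, Ltf, Cited1, Wnt4 and Lcn2, where it called 6.93% of genes (4.12% higher and 2.81% lower). The F1 effect minus the F3 effect was -1.67 on the log2 scale for Greb1 (SE 0.37, adjusted p = 0.0602 with edgeR), 4.11 for Lcn2 (SE 1.07, adjusted p = 0.0855) and 1.23 for Wnt4 (SE 0.39, adjusted p = 0.130). It was 8.07 for Cited1 (SE 2.34, adjusted p = 0.109) and 7.14 for Ltf (SE 2.32, adjusted p = 0.138), 2 genes with almost no counts in F3. Without F1 chlordecone 2, edgeR called 4 members for this difference, Greb1, Ltf, Cited1 and Lcn2, and 5 for F1 itself. Leaving out that library also raised the count over all genes, to 2604 of 17394 tested in F1 and 2320 of 16859 for the difference.

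Levels between genes were compared per kilobase of annotated exon. Ctsd was the most abundant member in every group, at 256 ± 78.0 CPM per kb in F1 chlordecone, 254 ± 7.16 in F1 control, 567 ± 27.4 in F3 chlordecone and 680 ± 108 CPM per kb in F3 control libraries. Xbp1 came second in every group, at 32.9 ± 11 in F1 chlordecone, 24.2 ± 5.28 in F1 control, 75.0 ± 2.07 in F3 chlordecone and 72.9 ± 8.32 CPM per kb in F3 control libraries. In F1 control libraries Greb1 followed at 9.79 ± 1.20 CPM per kb, then Igf1 at 4.81 ± 0.241 and Igfbp4 at 3.46 ± 0.360, and each of these 3 was apart from its neighbours by more than their ranges. In F1 chlordecone libraries the next means were those of Cited1 at 30.5 ± 41.5 CPM per kb, an SD above the mean, and Lcn2 at 8.24 ± 6.26. Igfbp4 (4.86 ± 1.25), Greb1 (4.26 ± 1.29) and Igf1 (3.99 ± 0.466) followed. None of these genes could be ordered beyond their spread. Single libraries reached from 0.777 to 77.9 CPM per kb for Cited1, which also spans Xbp1 (21.4 to 43.3), and from 1.62 to 14.1 for Lcn2. In F3 the order after Xbp1 was Greb1, Igfbp4 and Lcn2 in chlordecone and Igfbp4, Greb1 and Lcn2 in control libraries, with overlapping ranges between neighbours. Ltf, Areg and Cited1 were lowest in F3, at 0.0366 CPM per kb or less.

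Among members, Ltf, Lcn2 and Cited1 were most alike across libraries. Over the 11 libraries, with each generation centred on its own mean, the log2 CPM of Ltf and Lcn2 had a Pearson r of 0.932, that of Cited1 and Lcn2 0.915 and that of Ltf and Cited1 0.910. The points share their libraries and the F1 contrast, so these values describe the 11 libraries only. Among 12428 other genes, those most like Greb1 were Arid2 and Mertk (r = 0.970 each), and those most like Wnt4 were Scg5 (0.972) and the basal keratin Krt14 (0.968). Tmem132a (0.992) and Capzb (0.987) were most like Cited1, Zfp93 (0.986) and Trmt2b (0.985) most like Lcn2, and Zfp799 (0.983) and Xrcc4 (0.972) most like Ltf. Ankrd29 (0.975) and Gpm6b (0.940) were most like Igf1, Loxl1 (0.934) and St3gal4 (0.907) most like Igfbp4, and Zfp429 (0.959) and Irak3 (0.927) most like Areg. By rank (Spearman) the Areg pairs had only 0.543 and 0.686, and the Lcn2 pairs 0.755 and 0.773, in the same order. Areg had at most 1 count in each F3 library, so its values rest mostly on F1. For Ctsd they were Atp5h (0.981) and Psmb1 (0.976), and for Xbp1 Cdc26 (0.960) and Aph1a (0.958).

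The receptors themselves were measured in every library. Esr1, the oestrogen receptor alpha gene, had 21.0, 20.2 and 23.2 CPM in F1 chlordecone 1, 2 and 3, against 44.2 and 32.9 CPM in F1 control 1 and 2. Pgr, the progesterone receptor and itself a classical target of oestrogen, had 3.92, 4.85 and 2.62 CPM in F1 chlordecone 1, 2 and 3, against 8.49 and 10.1 CPM in F1 control 1 and 2. Both genes, like Greb1, lay below both controls in each F1 chlordecone library, and neither passed with edgeR (log2 fold changes -0.85 and -1.29, adjusted p = 0.280 and 0.328). DESeq2 did not call them in F1 either (adjusted p = 0.108 and 0.142). Without F1 chlordecone 2 each of them passed with edgeR, but so did 2604 of the 17394 genes tested, 933 of them lower. In chlordecone 2 alone against both controls, the log2 fold changes were -0.93 for Esr1 and -0.94 for Pgr.

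Esr2, the oestrogen receptor beta gene, was low throughout, at 1.39, 0.927 and 3.08 CPM in F1 chlordecone 1, 2 and 3, against 2.52 and 0.984 CPM in F1 control 1 and 2. In F3, Esr1 had 74.8, 66.9 and 60.8 CPM in chlordecone 1, 2 and 3, against 61.4, 53.8 and 56.1 CPM in control 1, 2 and 3. Pgr had 5.58, 5.16 and 3.27 CPM in F3 chlordecone 1, 2 and 3, against 2.62, 2.56 and 3.51 CPM in F3 control 1, 2 and 3. Both averaged higher in F3 chlordecone libraries, with overlapping groups. None of the 3 receptor genes passed with edgeR in F3 (adjusted p = 0.509 for Esr1, 0.450 for Pgr and 0.732 for Esr2). The F1 effect minus the F3 effect was -1.15 for Esr1 (SE 0.26) and -2.05 for Pgr (SE 0.50), with edgeR adjusted p of 0.0606 and 0.0702 and DESeq2 adjusted p of 0.000710 and 0.00532. Over the alternatives the edgeR and DESeq2 adjusted p of these differences ranged from 0.000710 to 0.174 for Esr1 and from 0.00532 to 0.243 for Pgr.

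**Figure D4:**
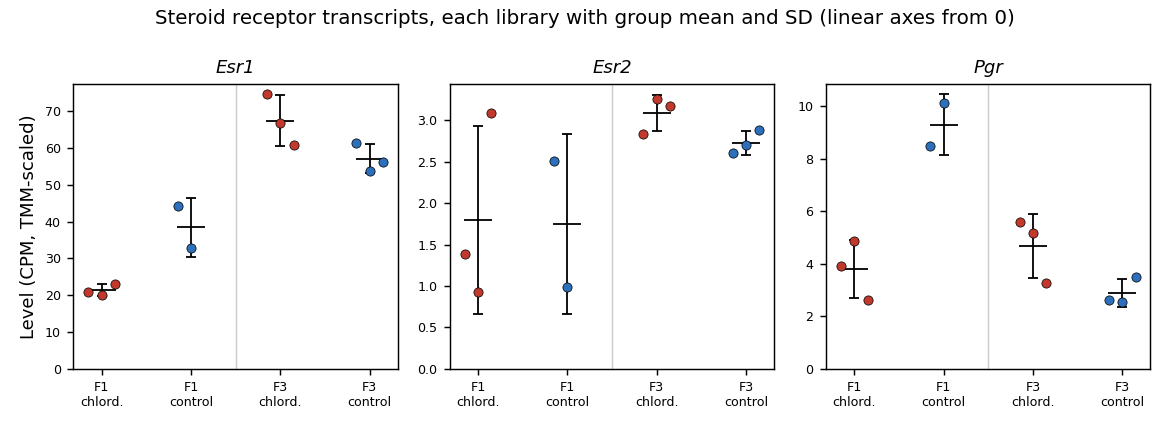
Level in CPM of Esr1, Esr2 and Pgr in each library (points), with group mean and SD, F1 left and F3 right of the grey line and chlordecone left of control; axes are linear from 0. Esr1 and Pgr lie under both controls in the 3 F1 chlordecone libraries, while in F3 their chlordecone means lie above the control means, with 4.67 and 2.90 CPM for Pgr.

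Of 16 genes for oestrogen receptors, related receptors and cofactors, all were tested in both generations and 0 passed with edgeR in either. In F1, 5 were higher and 11 lower, with a median log2 fold change of -0.67 against 0.03 over all genes tested. In that list 6 had an unadjusted p under 0.05, all lower, against 11.5% of all genes in either direction, and DESeq2 called 1 (0.944% of all genes were called lower), Gata3, which encodes a zinc finger transcription factor that works beside Esr1 in breast cells. Gata3 had 1537 ± 229 CPM in F1 chlordecone and 3188 ± 34.1 CPM in F1 control libraries (SD, n = 3 and 2; adjusted p = 0.297 with edgeR). In F3, 12 were higher and 4 lower, with a median of 0.27 against -0.01 over all genes. The smallest p were those of Esrrg (32.5 ± 3.90 CPM in chlordecone and 18.1 ± 5.79 CPM in control libraries, adjusted p = 0.389 with edgeR) and Esrrb (0.0721 ± 0.0362 and 0.275 ± 0.140 CPM, adjusted p = 0.394), orphan receptors related to Esr1.

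Of 11 genes of oestrogen synthesis and inactivation, 8 were tested in F1 and 7 in F3, and 0 passed with edgeR in either. Cyp1a1, a cytochrome that hydroxylates oestradiol, had 3.03 ± 1.39 CPM in F1 chlordecone and 0.204 ± 0.156 CPM in F1 control libraries. The log2 fold change was 3.87 (SE 1.02, adjusted p = 0.232 with edgeR). It rests on few counts, since F1 control 1 and 2 had 6 and 2 counts, near the floor of 3 counts. Cyp1a1 was the 1 gene of the list that DESeq2 called in F1, where DESeq2 called 3.05% of all genes higher. In F3, Cyp1a1 had 0.251 ± 0.125 CPM in chlordecone and 0.104 ± 0.0665 CPM in control libraries. Ugt1a1, a glucuronosyltransferase, had 0.142 ± 0.0169 and 0.0490 ± 0.0583 CPM in the same groups. F3 control 1, 2 and 3 had 17, 4 and 9 counts of Cyp1a1 and 11, 1 and 2 counts of Ugt1a1, so these means rest on few counts.

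Of 24 other oestrogen-responsive genes, 21 were tested in each generation and 0 passed with edgeR; 11 were higher and 10 lower in F1, and 10 higher and 11 lower in F3. Ccnd1, the cyclin D1 gene, had 132, 67.8 and 143 CPM in F1 chlordecone 1, 2 and 3, against 25.5 and 29.4 CPM in F1 control 1 and 2, and 37.3, 37.1 and 32.7 CPM in F3 chlordecone 1, 2 and 3, against 47.7, 54.2 and 53.9 CPM in F3 control 1, 2 and 3. Its chlordecone libraries all lay above the controls in F1 and all below them in F3, and DESeq2 called it in both (adjusted p = 2.28e-05 and 0.0156; 0.152 and 0.310 with edgeR). The F1 effect minus the F3 effect of Ccnd1 was 2.52 (SE 0.35, adjusted p = 0.00768 with edgeR), past the threshold in 14 of 16 alternatives. It missed it without F1 control 1 (adjusted p = 0.0514) and with the replicate number as a block (adjusted p = 0.0516). Cxcl12, a chemokine gene, had 68.4 ± 12 CPM in F1 chlordecone and 37.1 ± 0.928 CPM in F1 control libraries (adjusted p = 0.281 with edgeR).

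Of the 20 genes of the insulin-like growth factor axis, 19 were tested in F1 and 18 in F3, and of the 14 genes of the epidermal growth factor family 13 and 12; 0 passed with edgeR in either list and generation. Irs1, an adaptor of the insulin-like growth factor receptor, had 21.6 ± 3.38 CPM in F1 chlordecone and 31.3 ± 1.52 CPM in F1 control libraries, and 87.3 ± 7.25 CPM in F3 chlordecone and 62.3 ± 16.1 CPM in F3 control libraries. Igfbp3 had 19.2 ± 5.15 and 28.3 ± 0.256 CPM in the F1 groups, and Igf2 had 2.99 ± 1.25 and 1.67 ± 0.194 CPM in the F3 groups, chlordecone named first in each pair. Egf, the ligand that gives the family its name, had 52.7 ± 6.32 CPM in F1 chlordecone and 98.5 ± 19.9 CPM in F1 control libraries and was called by DESeq2 (adjusted p = 0.0436; 0.262 with edgeR). Adam17, the protease that sheds amphiregulin, had 28.1 ± 12.3 and 13.9 ± 0.187 CPM in the same groups. In F3, Adam10 had 181 ± 21.3 CPM in chlordecone and 128 ± 24.7 CPM in control libraries, and Erbb4, a receptor of the family, 1.55 ± 0.390 and 0.934 ± 0.0456 CPM.

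Of the 28 genes of Wnt signalling, 27 were tested in F1 and 26 in F3, and 0 passed with edgeR; in F1, 16 were higher and 11 lower with a median log2 fold change of 0.26. Lrp5, a Wnt coreceptor, had 8.96 ± 3.08 CPM in F1 chlordecone and 2.88 ± 0.227 CPM in F1 control libraries and was, with Wnt4, called by DESeq2 (adjusted p = 0.0428; 0.259 with edgeR). Over all genes, DESeq2 called 3.05% higher in F1. In F3, Lrp5 had 62.9 ± 6.14 CPM in chlordecone and 50.7 ± 9.96 CPM in control libraries. Fzd1, a Wnt receptor, had 15.7 ± 2.84 and 23.3 ± 8.12 CPM in the same groups. The basal epithelium markers, among them Krt14, summed to 59.0, 89.2 and 63.4 CPM in F1 chlordecone 1, 2 and 3, against 28.7 and 40.7 CPM in F1 control 1 and 2, and the part of basal cells in the Wnt4 level was not tested.

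Of the 16 lysosomal genes, all were tested and 0 passed within a generation with edgeR. In F1, 14 were higher and 2 lower, with a median log2 fold change of 0.58, and in F3, 3 were higher and 13 lower, with a median of -0.28. Ctsc, the protease cathepsin C, was among the 2 lower genes in F1 and the 3 higher genes in F3, with 167, 155 and 186 CPM in F1 chlordecone 1, 2 and 3, against 464 and 380 CPM in F1 control 1 and 2, and 436, 431 and 441 CPM in F3 chlordecone 1, 2 and 3, against 374, 353 and 388 CPM in F3 control 1, 2 and 3. Its F1 effect minus its F3 effect was -1.62 (SE 0.26, adjusted p = 0.0162 with edgeR), past the threshold in 11 of 16 alternatives. It missed the threshold without F1 control 1 (adjusted p = 0.0664), without F3 chlordecone 1, 2 or 3 (0.0674, 0.0586 and 0.0530) and with the replicate number as a block (0.0928). Ctsb, cathepsin B, had 170 ± 78.1 CPM in F1 chlordecone and 70.4 ± 1.66 CPM in F1 control libraries, and in F3 the smallest p were those of Ctsf (37.7 ± 3.66 and 49 ± 2.97 CPM) and Lgmn, legumain (14.8 ± 2.15 and 19.9 ± 2.06 CPM).

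Of the 23 genes of the unfolded protein response, to which Xbp1 belongs, 23 were tested in F1 and 22 in F3, and 0 passed with edgeR. The median log2 fold change was -0.02 in F1 and -0.03 in F3. Pdia6, a disulphide isomerase of the endoplasmic reticulum, had 863 ± 194 CPM in F1 chlordecone and 1846 ± 18.0 CPM in F1 control libraries (DESeq2 adjusted p = 0.00725; 0.284 with edgeR), and Atf6, a stress sensor, 28.0 ± 2.41 and 50.0 ± 9.79 CPM. In F3, Ddit3, a stress-induced transcription factor, had 16.1 ± 2.75 CPM in chlordecone and 22.8 ± 5.70 CPM in control libraries, and Ern1, the sensor that splices Xbp1, 224 ± 33.9 and 162 ± 44.2 CPM.

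Of the 18 genes of mucosal defence and siderophore binding, which include Ltf and Lcn2, 12 were tested in F1 and 11 in F3, and 0 passed within a generation with edgeR. In F1, 9 were higher and 3 lower, with a median log2 fold change of 1.90 (Slpi, at its bound, still lies above it), against 0.03 over all genes. DESeq2 called 5, all higher, where it called 3.05% of all genes higher. In F3, 2 were higher and 9 lower, with a median of -0.65 against -0.01 over all genes. DESeq2 called 0 there, where it called 1.61% of all genes. The vas deferens and epididymis and the urothelium markers were high in the same F1 chlordecone libraries as Lcn2, Ltf and Slpi. Their part in the values of this list was not tested. Slpi, a secreted protease inhibitor, had 12, 4.09 and 47.9 CPM in F1 chlordecone 1, 2 and 3, against 0 counts in both F1 controls, which makes it at least 143-fold higher when the controls are set to 3 counts per library (0.149 CPM). Without chlordecone 3 the bound was 54.1-fold. In F3 it had 5.30, 11.6 and 6.67 CPM in chlordecone 1, 2 and 3, against 4.49, 58.8 and 21.4 CPM in control 1, 2 and 3. The difference between generations passed for Slpi with edgeR (adjusted p = 0.0395), in 9 of 16 alternatives, and it missed the threshold without F1 control 1 or 2 (0.133 and 0.135), without F3 control 2 or 3 (0.0584 and 0.0606) and without F3 chlordecone 1, 2 or 3 (0.0942, 0.0634 and 0.0848). Lyz1, lysozyme, had 1.08 ± 0.222 CPM in F3 chlordecone and 1.72 ± 0.420 CPM in F3 control libraries.

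Of the 9 genes of the CITED family and its partners, 9 were tested in F1 and 7 in F3, and 0 passed with edgeR. DESeq2 called 3 in F1, all higher: Cited1, Smad4 and Tfap2b, where it called 3.05% of all genes higher. In F3 it called 1, Tfap2c, where it called 1.61% of all genes. Smad4, the common effector of transforming growth factor beta signalling, had 223 ± 11 CPM in F1 chlordecone and 92.1 ± 18.8 CPM in F1 control libraries (log2 fold change 1.27, SE 0.28, adjusted p = 0.197 with edgeR), and Tfap2b, an AP-2 transcription factor, 4.59 ± 1.35 and 0.607 ± 0.328 CPM. In F3, Tfap2c, another AP-2 factor, had 12.7 ± 0.651 CPM in chlordecone and 8.87 ± 0.636 CPM in control libraries (DESeq2 adjusted p = 0.0412; 0.377 with edgeR), and Ep300, the coactivator that CITED proteins bind, 48.6 ± 11.3 and 34.7 ± 10.9 CPM.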

How the data were processed

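Poly-A RNA of prostate was sequenced after a stranded library preparation, per the labels' protocols. The deposited table of each generation holds raw counts per gene, and beside them the authors' own comparison as log2 values, a p-value and its adjusted form, with a decimal comma in F1, per the file headers. The submitters' processing notes name TopHat2 2.0.14, HTSeq 0.6.1, Bowtie2 2.1.0, DESeq2 1.6.3, bcl2fastq 2.17.1.14 and mm10. They give no annotation release or strand setting. The lowest total count of a gene was 20 in the F1 and 1 in the F3 table, so levels set across generations are descriptions. Columns headed K were read as chlordecone, from kepone.

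The test was that of edgeR 4.0.16 (R 4.3.3) on the counts: filterByExpr (minimum count 10, minimum total 15), TMM scaling, and the quasi-likelihood F test with Benjamini-Hochberg adjustment over all genes tested, within each generation, and as an interaction in 1 fit of 11 libraries. The alternatives, DESeq2 1.42.0 among them, are in the closing section. The scripts were tested on simulated data. The members and gene lists were chosen with earlier results of these data known. The genes named from a list have the 2 smallest unadjusted p in either generation; Esr1, Esr2 and Pgr were always named, and some genes that the rule names are not reported here. Genes like a member were ranked by Pearson r of log2 CPM (prior count 2), among genes tested in both generations with a mean of at least 1 CPM. Floors cover counting error only.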

Additional observations from a re-analysis of the deposited data

Results flagged for a closer look

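For 8 named genes the effects in the generations went opposite ways in every library, or their difference passed edgeR's interaction test. Values are the F1 effect minus the F3 effect on the log2 scale. The test passed for Ccnd1 (2.52, adjusted p = 0.00768), for Ctsc (-1.62, adjusted p = 0.0162) and for Slpi (15, adjusted p = 0.0395). The fitted value of Slpi is no bound, since both F1 controls had 0 counts.

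The other 5 did not pass the interaction test. Cited1 had a value of 8.07 (adjusted p = 0.109) and its F3 side has no weight, since it was near the floor there, with 3 to 5 counts in F3 chlordecone and 4 to 10 counts in F3 control libraries. On opposite sides of their controls in the 2 generations, Esrrg had -1.64 (adjusted p = 0.0611), Irs1 -1.09 (adjusted p = 0.113), Adam10 -0.96 (adjusted p = 0.101) and Ctsf 0.82 (adjusted p = 0.138). The vas deferens and epididymis and the seminal vesicle markers also differed between the generations, and their part in these values was not tested.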

How the results depend on the processing

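Of 947 log2 values of single genes under an alternative, 822 kept their direction and their side of the threshold, 84 newly passed it, 14 no longer did and 27 reversed. The number of F1 genes called was 5 and became 21 with no filter on low counts, 711 with DESeq2, 930 in 1 fit of all groups, 322 with the replicate block, 0 to 2604 without single libraries, and 1226 in chlordecone 2 alone against both controls, an alternative chosen after seeing the data, whose lone library is assumed to vary like the controls. The number of members called in F1 was 0 and became 5 with DESeq2, 4 in 1 fit of all groups, 3 with the replicate block, 0 to 5 without single libraries (5 only without chlordecone 2), and 2, Greb1 and Ctsd, both lower, in chlordecone 2 alone. In F3, 10 genes were called, 38 with no filter, 248 with DESeq2, 2 in 1 fit of all groups and 7 to 41 without single libraries, and 0 members under each alternative run. For the difference between generations, 122 genes were called, 192 at a mean of at least 1 CPM, 1151 with DESeq2, 49 with the replicate block and 27 to 2320 without single libraries; 0 members were called, against 5 with DESeq2, 2 with the replicate block and 0 to 4 without single libraries. The cause of these changes was not tested.

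Over all genes tested, the r of deviations of same-numbered chlordecone and control samples was 0.048 and 0.058 in F1, and 0.131, 0.002 and 0.002 in F3. For differently numbered F3 samples it lay between -0.22 and 0.206. With 2 F1 controls their deviations mirror each other, and pairing that touches few genes would not show in such an r. These values therefore cannot decide whether the replicate numbers pair the samples. With the block the F3 count was 8. Ctsd in F1 (main value 0.01) was -0.0158 at a mean of at least 1 CPM, -0.0144 in 1 fit of all groups, -0.18 with the replicate block, -0.62 in chlordecone 2 alone (adjusted p = 0.0109) and -0.13 to 0.24 without single libraries. Esr2 in F1 (0.04) was -0.48 with the block, -0.91 in chlordecone 2 alone and -0.59 to 0.88 without single libraries. In chlordecone 2 alone, Xbp1 (0.44) was -0.18 and Adam17 (1.01) -0.0015. In F3, Igf1 (-0.02) was 0.0363 in 1 fit of all groups and 0.0526 with the block. Without single libraries the ranges were -0.0907 to 2.53 for Areg in F1; -0.31 to 0.15 for Igf1, -0.22 to 0.0819 for Lcn2, -0.55 to 0.0849 for Igfbp4 and -0.0413 to 0.11 for Xbp1 in F3; and -1.67 to 0.98 for Areg and -0.84 to 0.59 for Esr2 in the difference between generations. Ltf, Areg and Cited1 had 10 counts or fewer in each F3 library, although the F3 libraries were the deeper ones.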
